A study of Mus musculus with 16 samples.

Results

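The cell cycle genes described here are 48 genes of DNA replication, S phase entry and mitosis, followed through 16 RNA libraries of mouse fetal cortex. They were taken by name: 26 act in mitosis, 17 in DNA replication and 5 at the passage from G1 to S phase, out of 55359 gene IDs in each library's count table. All 48 passed the filter on low counts and were among the 21543 genes tested. The study asked how ethanol exposure of one or both parents changed the offspring. Each library held total RNA of fetal cortex at gestational day 16, and 4 libraries came from fetuses with dual exposure (both parents given ethanol), 4 with paternal exposure, 4 with maternal exposure and 4 from controls with neither parent exposed. Each exposure was split evenly into 2 male and 2 female libraries. The labels name no genetic change in any group. The labels give no strain, no dose of ethanol and no time of exposure. They also leave unsaid whether the replicates of a group are separate fetuses or litters. The p-values therefore describe the scatter among these 16 libraries, part of which may be technical.

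At mid to late gestation the cortex grows from progenitors that line the ventricle. Radial glia and intermediate progenitors divide there, while the neurons they produce leave the cycle for good. D cyclins and then E cyclins carry a progenitor into S phase through release of the E2F factors. The MCM helicase, loaded on origins with the help of Cdc6 and Cdt1, opens the DNA for the polymerases, and Cdk1 with its B cyclins, the Aurora and Polo kinases and the kinetochore proteins then drive chromosome segregation. Transcripts of replication genes peak around S phase and those of mitotic genes in G2 and M phase, so in whole tissue both classes follow the number of dividing cells. In such bulk RNA, fewer cells of a type and less RNA per cell cannot be told apart.

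Male libraries held 15336566 to 19966696 counts and female libraries 26134287 to 35218456, so effects of sex and of depth on a level cannot be told apart. Composition differed as well. Gene IDs with no matched symbol took 1.73% to 2.43% of each female total. Among males their share was 1.96% and 8.49% in the controls, 14.2% in the first paternal and 17.8% in the second dual library. The part of this share in the results on males was not tested. Levels are CPM, counts brought to a common library total, with scaling by TMM, a correction for differences in library composition. Neuronal and cortical identity was plain in every library: Tbr1, a factor of deep-layer cortical neurons, lay between 310 and 441 CPM. Progenitor markers were present as well, with Pax6 at 31.9 to 53.2 CPM and Eomes at 49.1 to 90.6 CPM. Dlx1, a marker of the ventral forebrain, lay between 177 and 281 CPM. The 48 members together made up 2279 to 4028 CPM.

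Some of the genes named below are shown first by their promoters. Each line gives the 150 bases just before the RefSeq start of the gene on GRCm38.p6, 5′ to 3′ on the gene's own strand. Capitals mark matches, on either strand, to the letters TTTGAA (the core of the cell cycle homology region, bound by the complexes that restrain G2 and M phase genes), to TTTGGCGC, TTTCGCGC or TTTCCCGC (forms of the E2F site) and to CCAAT (the NF-Y box).
Cdk1, the kinase that starts mitosis, chr10:69352913-69353062, minus strand: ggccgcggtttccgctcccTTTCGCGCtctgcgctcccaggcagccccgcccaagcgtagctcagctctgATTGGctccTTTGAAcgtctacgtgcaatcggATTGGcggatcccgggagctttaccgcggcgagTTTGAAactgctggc
Cenpl, a subunit of the inner kinetochore, chr1:161070617-161070766, plus strand: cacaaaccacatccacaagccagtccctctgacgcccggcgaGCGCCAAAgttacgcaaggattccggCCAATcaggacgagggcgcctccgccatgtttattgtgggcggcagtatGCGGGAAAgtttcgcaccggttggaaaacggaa
Mcm5, a subunit of the MCM helicase, chr8:75109359-75109508, plus strand: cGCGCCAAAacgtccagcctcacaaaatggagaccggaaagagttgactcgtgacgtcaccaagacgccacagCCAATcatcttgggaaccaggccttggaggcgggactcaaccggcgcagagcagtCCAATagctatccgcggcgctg
Mcm7, another subunit of that helicase, chr5:138171884-138172033, minus strand: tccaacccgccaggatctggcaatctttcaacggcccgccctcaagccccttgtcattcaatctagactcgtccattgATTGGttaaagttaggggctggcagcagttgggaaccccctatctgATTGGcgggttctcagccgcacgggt
Prim1, the catalytic subunit of primase, chr10:128015065-128015214, plus strand: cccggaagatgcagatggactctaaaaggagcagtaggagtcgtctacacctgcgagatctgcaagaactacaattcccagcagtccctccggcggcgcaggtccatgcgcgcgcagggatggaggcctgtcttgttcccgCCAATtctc

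Cdk1 held all 3 kinds of letters in this stretch, with TTTGAA 71 and 15 bases before the start and an E2F form 131 bases before it. Cenpl held 2 E2F forms, 108 and 33 bases before the start, and Mcm5 held 1, at 149 bases. The matches shown do not overlap each other, and of the 2 RefSeq windows of Mcm7 the first listed is shown. Over the 250 bases before the start, 39 of the 48 members had a RefSeq window, with the kind of letters counted once per gene. TTTGAA stood in 9 of 22 mitosis genes (40.9%), in 3 of 15 replication genes (20%) and in 18.3% of all genes with a window. E2F forms stood in 2 of 22 mitosis genes (9.09%), in 4 of 15 replication genes (26.7%) and in 1.78% of all genes. CCAAT stood in 18 of 22 mitosis genes (81.8%), 10 of 15 replication genes (66.7%) and 37.5% of all genes. The windows of the G1/S genes Ccne1 and E2f1 held none of the 3. A match is a description of the letters, and the binding of any factor was not measured. No window was matched for Kif20a, Tpx2, Aurkb, Ccna2, Mcm4, Gmnn, Ccnd1, Ccnd2 or Ccne2.

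Expressed per kilobase of exon, the median level over the 16 libraries ranked Ccnd2 first of all members at 94.2 CPM per kb. Ccnd2 encodes cyclin D2, which drives G1 progression and is strongly made by cortical progenitors. Other G1/S genes lay far lower, with Ccnd1 at 7.62, E2f1 at 3.94, Ccne2 at 3.93 and Ccne1 at 1.65 CPM per kb. Among replication genes Pcna, the sliding clamp of the polymerases, was highest at 32.7 CPM per kb, before Rrm2, a subunit of ribonucleotide reductase, at 26.3 and Mcm7 at 19.7. At the low end were Tyms, the thymidylate synthase, at 2.7 CPM per kb, the licensing factor Cdc6 at 1.49 and the flap endonuclease Fen1 at 0.612. Mitosis genes were led by Mki67, the proliferation antigen that coats mitotic chromosomes, at 31.1 CPM per kb, Top2a, the topoisomerase that untangles them, at 28.1, and the spindle factor Tpx2 at 13.6. Nuf2 and Ndc80, partners in the outer kinetochore, lay at 2.89 and 1.82 CPM per kb, and Cenpl was lowest of the mitosis genes at 1.81.

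The members varied about as much in either class. The highest library held a median of 2.04 times the CPM of the lowest over the 17 replication genes, 2.04 times over the 26 mitosis genes and 1.8 times over the 5 G1/S genes. A single library set most of those maxima: the first female control had the highest CPM of all 16 libraries for 43 of the 48 members, among them 25 of 26 mitosis genes. The second female dual library had the lowest CPM for 29 members, and the other female control was lowest for 7. The first female control held a median of 1.86 times the CPM of the second over mitosis genes and 1.585 times over replication genes. So the widest gap between replicates of a group, in each of the 3 classes, was the gap between the female controls, and every comparison that uses them rests on it.

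**Figure D1:**
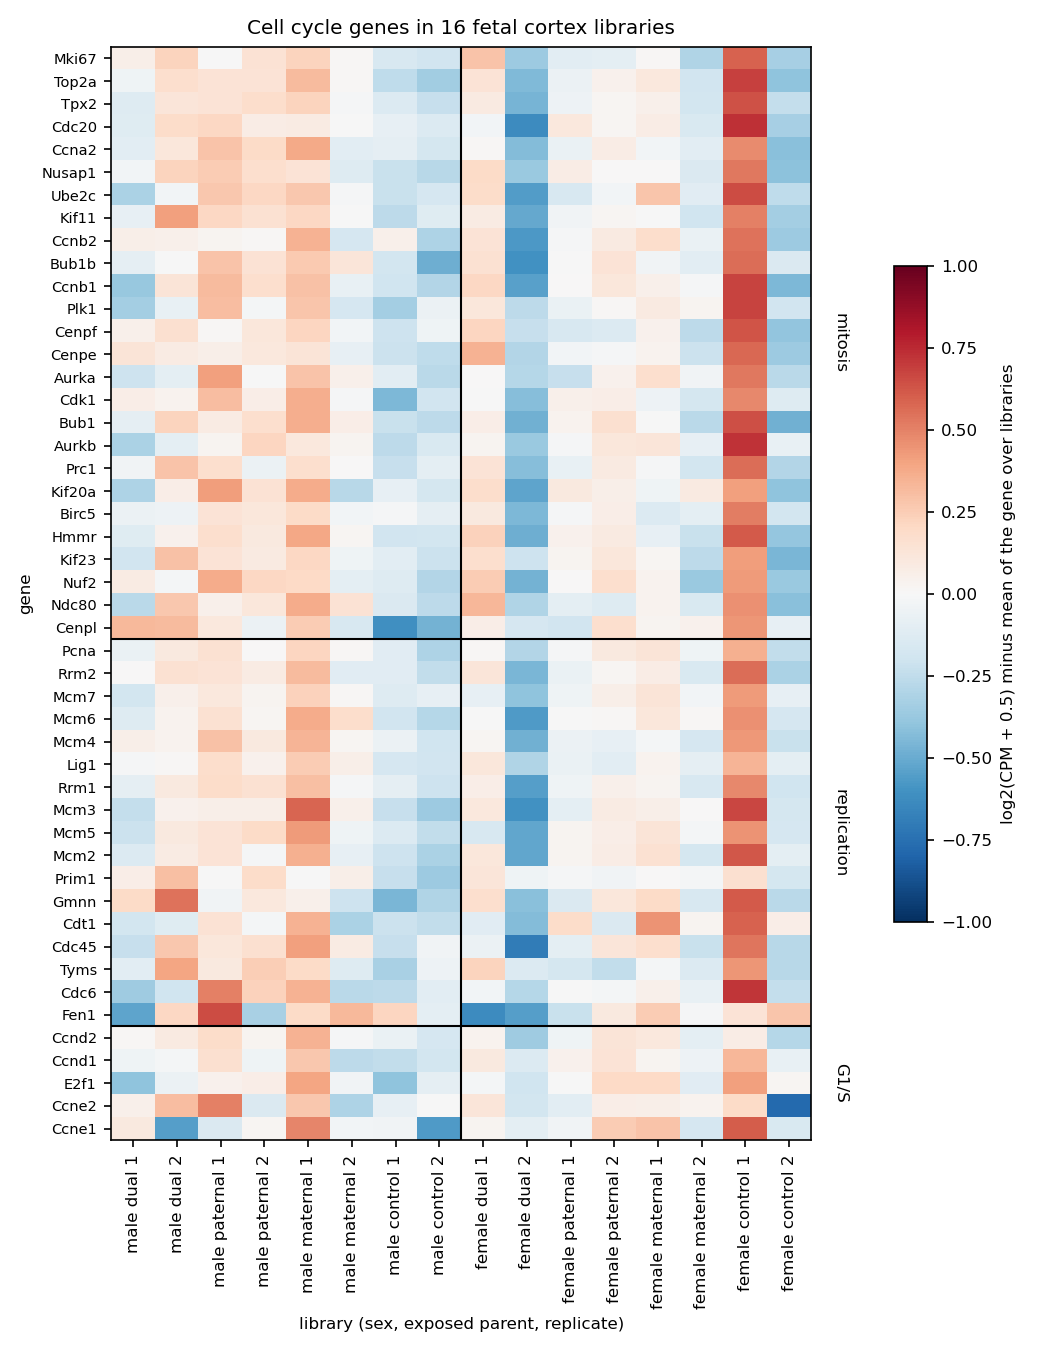
Level of each of the 48 genes in each of the 16 libraries, as log2(CPM + 0.5) minus the gene's mean over all libraries, with genes in rows by class and libraries in columns by sex and exposure. The first female control is high for 43 of the 48 genes, the second female dual library is lowest for 29, and both male controls lie low for most genes.

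The level of a class is the median over its genes of log2(CPM + 0.5) minus each gene's own mean, so 0 is a library at the average. The mitosis level in males was -0.09 and 0.12 with dual exposure, 0.17 and 0.13 with paternal, 0.26 and -0.01 with maternal exposure and -0.20 in both controls. In females it was 0.14 and -0.44 with dual exposure, -0.02 and 0.06 with paternal, 0.03 and -0.15 with maternal exposure and 0.56 and -0.35 in controls. The male controls were the lowest male libraries, whereas the female controls spanned all exposed female libraries but one, the second dual library.

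Replication genes followed with small differences in order. Their level in males was -0.13 and 0.09 with dual exposure, 0.14 and 0.08 with paternal, 0.31 and 0.01 with maternal exposure and -0.19 and -0.25 in controls. Female values were 0.02 and -0.46 with dual exposure, -0.04 and 0.05 with paternal, 0.11 and -0.08 with maternal exposure and 0.46 and -0.18 in controls. Over both sexes the replication level averaged -0.12 ± 0.24 with dual, 0.06 ± 0.08 with paternal and 0.09 ± 0.17 with maternal exposure and -0.04 ± 0.33 in controls (SD, n = 4 each), so the exposures overlapped each other and the controls. The mitosis level averaged -0.07 ± 0.27 with dual, 0.08 ± 0.08 with paternal and 0.03 ± 0.17 with maternal exposure and -0.05 ± 0.41 in controls (SD, n = 4 each). Paternal libraries were the tightest in both classes and controls the widest.

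The difference between the classes was small beside the movement they shared. The replication level minus the mitosis level lay between -0.12 and 0.17 over all 16 libraries, against a range of -0.44 to 0.56 for the mitosis level itself. It averaged -0.05 ± 0.05 with dual, -0.03 ± 0.02 with paternal and 0.06 ± 0.02 with maternal exposure and 0.01 ± 0.12 in controls (SD, n = 4 each). All 4 maternal libraries lay above 0, at 0.03 to 0.08, and all dual and paternal libraries below 0. The female controls were at -0.10 and 0.17 and so enclosed every exposed library except the first female dual one, at -0.12. The pooled SD between replicates of a group was 0.07 for this difference and 0.29 for the mitosis level. A bias towards replication or mitosis genes in 1 exposure was therefore not larger than the spread of the controls.

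**Figure D2:**
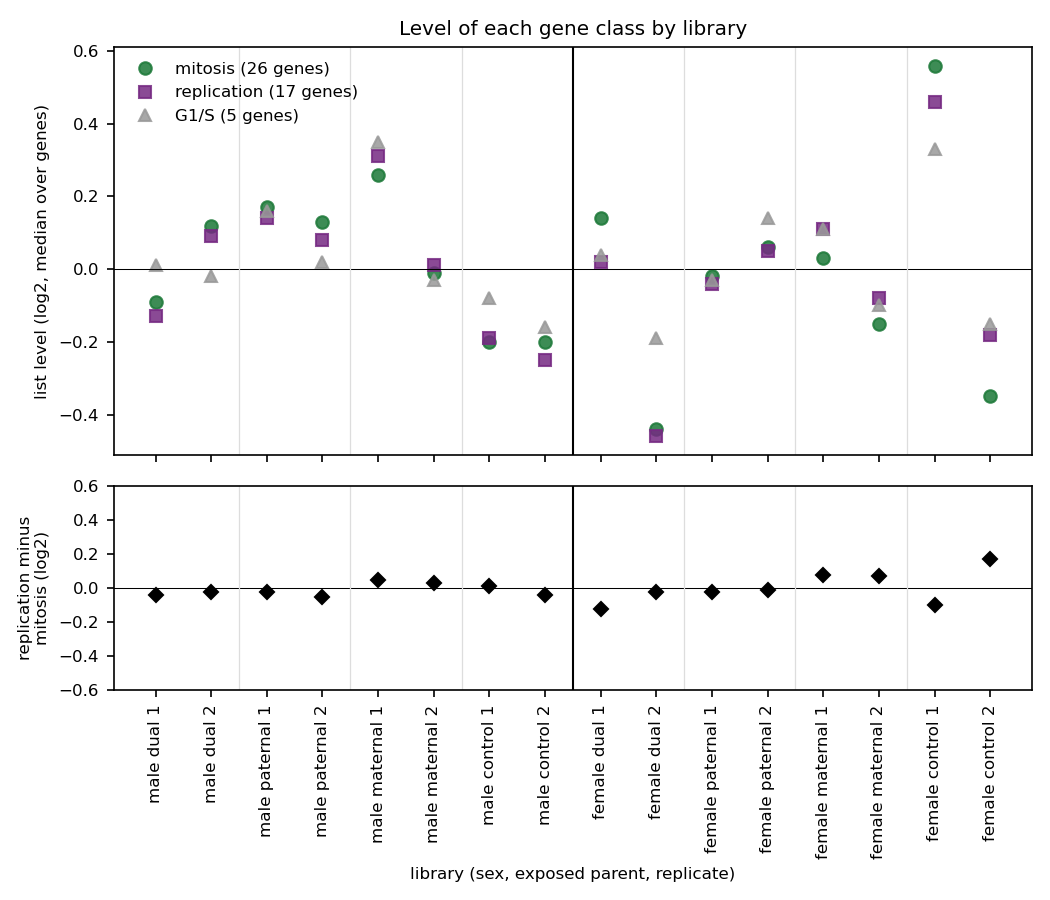
Level of the mitosis, replication and G1/S genes in each library, and the replication minus the mitosis level, all on a log2 scale, with exposures along the axis from dual to control in males and females and 1 point per library. The classes rise and fall together across libraries, and the difference between them stays within -0.12 to 0.17.

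Other gene lists moved with these levels. The markers of intermediate progenitors, 10 genes such as Eomes, summed to 502 to 582 CPM in exposed males, above 485 and 485 CPM in male controls. In females they summed to 462 to 603 CPM with exposure, against 668 and 422 CPM in controls. The first female control was the highest of all libraries, as for most members, and the second female control was the lowest. Sums over 16 radial glia markers were narrower, between 2299 and 2829 CPM over all libraries. In males they ran from 2608 to 2829 CPM with exposure, above 2482 and 2559 CPM in controls. The female controls, at 2734 and 2409 CPM, enclosed all exposed female libraries except the second dual one. Markers of the meninges went the other way in the first female control: their 9 genes summed to 85.9 CPM there, against 405 CPM in the second female control and 227 to 617 CPM in the other 14 libraries. Col1a1, a fibrous collagen of meningeal fibroblasts, ranged from 17.7 to 155 CPM. Ventral forebrain markers, such as Dlx1, were again highest in the first female control. They summed to 947 CPM there, against 685 to 826 CPM in the other libraries. The part of these lists in the results on the members was not tested.

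**Figure D3:**
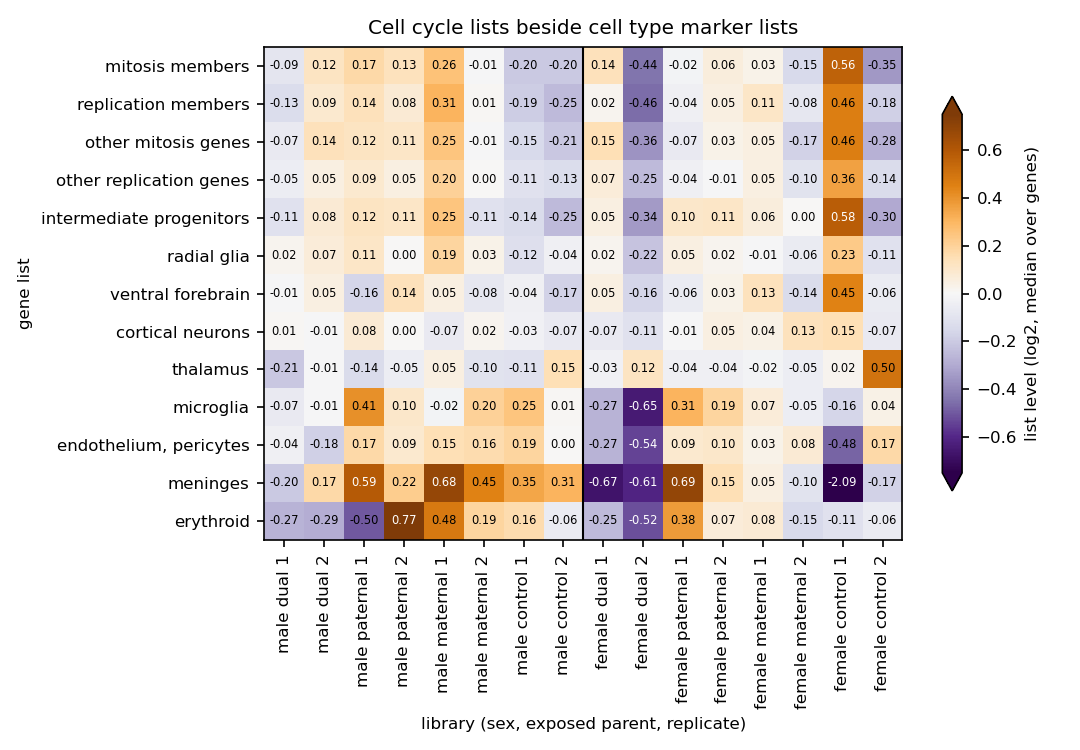
Level of each marker list and of the other cell cycle lists in each library (median over the list of log2(CPM + 0.5) minus the gene mean), with libraries ordered from dual to control in males and females. Intermediate progenitor markers are highest and meningeal markers lowest in the first female control.

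With dual exposure, averaged over the sexes, none of the 48 members passed the test. edgeR's quasi-likelihood test with Benjamini-Hochberg adjustment over all genes called 0 of 48 at an adjusted p under 0.05, where it called 3.36% of all genes, and DESeq2 also called 0. At an unadjusted p under 0.05 were 3 members, where 19.7% of all genes were. Log2 fold changes of dual against control had medians of -0.05 over mitosis, -0.12 over replication and 0.01 over G1/S genes, beside 0.0005 over all genes, and 17 of 48 members lay above 0 (50.1% of all genes). The typical member had a standard error of 0.15, so its interval reached 0.33 to each side.

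Paternal and maternal exposure gave as little. Paternal exposure called 0 of 48 members, with 0 at an unadjusted p under 0.05, beside 0% and 8.45% of all genes, and DESeq2 called 0. Median log2 fold changes against control were 0.08 over mitosis, 0.05 over replication and 0.11 over G1/S genes, and 42 of 48 lay above 0 (47.5% of all genes). Maternal exposure called 0 members as well, with 0 at an unadjusted p under 0.05, beside 0% and 3.79% of all genes, and DESeq2 called 0. Its medians were 0.04, 0.07 and 0.16 in the same order of classes, and 39 of 48 members lay above 0 (48.9% of all genes). The 3 comparisons share the same 4 controls, so their values are not independent of each other.

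Prim1, which lays down the RNA primers of each new strand, had the smallest p of all members for dual exposure. It stood in males at 25.3 and 29.8 CPM with dual exposure, 24.05 and 27.4 CPM with paternal, 24.1 and 25.1 CPM with maternal exposure and 20.5 and 18.6 CPM in controls. In females it stood at 26.2 and 23.3 CPM with dual exposure, 23.8 and 23.5 CPM with paternal, 24.1 and 23.7 CPM with maternal exposure and 26.9 and 21.2 CPM in controls. Every exposed male library lay above both male controls, and in females the controls enclosed all exposed libraries. The log2 fold change was 0.27 ± 0.09 (SE) for dual exposure (edgeR adjusted p = 0.115), 0.19 ± 0.09 for paternal (adjusted p = 0.602) and 0.16 ± 0.09 for maternal exposure (adjusted p = 0.998).

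Cenpl helps to tie the kinetochore to centromeric chromatin. In males it had 12.7 and 12.6 CPM with dual exposure, 10.9 and 9.64 CPM with paternal, 12.1 and 8.95 CPM with maternal exposure and 6.38 and 7.08 CPM in controls. In females it had 10.55 and 8.88 CPM with dual exposure, 8.75 and 11.3 CPM with paternal, 10.2 and 10.4 CPM with maternal exposure and 13.8 and 9.44 CPM in controls. The male controls were the lowest of all 16 libraries, and the first female control was the highest. Averaged over the sexes the log2 fold change was 0.33 ± 0.14 for dual (edgeR adjusted p = 0.206), 0.20 ± 0.14 for paternal (adjusted p = 0.726) and 0.24 ± 0.14 for maternal exposure (adjusted p = 0.998).

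Fen1, which trims the flaps of Okazaki fragments, was the least abundant member, with 12 to 59 counts per library. Its CPM in males was 0.77 and 1.61 with dual exposure, 2.38 and 0.96 with paternal, 1.59 and 1.79 with maternal exposure and 1.62 and 1.21 in controls. In females it was 0.68 and 0.75 with dual exposure, 1.07 and 1.46 with paternal, 1.68 and 1.31 with maternal exposure and 1.51 and 1.71 in controls. Both female dual libraries lay below the other 14, and the log2 fold change of dual against control was -0.72 ± 0.32 (edgeR adjusted p = 0.219). In the annotation at hand 78.8% of the Fen1 exon bases overlap Gm10143 on the other strand, so reads of the pair cannot be told apart without the strand setting, and the level of Fen1 is uncertain.

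The chief proliferation markers did not separate the exposures. Mki67 in males was at 325 and 364 CPM with dual exposure, 311 and 344 CPM with paternal, 364 and 314 CPM with maternal exposure and 279 and 273 CPM in controls. In females Mki67 was at 381 and 243 CPM with dual exposure, 290 and 292 CPM with paternal, 315 and 254 CPM with maternal exposure and 468 and 248 CPM in controls. Averages were 328 ± 61.6 CPM with dual, 309 ± 25.3 CPM with paternal and 312 ± 45.1 CPM with maternal exposure and 317 ± 102 CPM in controls (SD, n = 4 each). The male controls were the lowest male libraries and the female controls included the highest library of all, so the averages met. Log2 fold changes were 0.06, -0.03 and -0.02 for dual, paternal and maternal exposure, each with a standard error of 0.15.

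Top2a followed Mki67. Its levels in males were 241 and 280.3 CPM with dual exposure, 273 and 273 CPM with paternal, 310.4 and 250.5 CPM with maternal exposure and 208 and 195 CPM in controls. Female levels were 273 and 183 CPM with dual exposure, 239 and 256.5 CPM with paternal, 268 and 217 CPM with maternal exposure and 400.4 and 188 CPM in controls. Again all 6 exposed male libraries lay above the male controls and the female controls enclosed all exposed libraries except the second dual one. Log2 fold changes were 0.0005, 0.09 and 0.10 for dual, paternal and maternal exposure (SE 0.17).

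Among the mitotic kinases, Cdk1 was at 29.2 and 28.6 CPM in dual, 34.7 and 29.3 CPM in paternal, 36.2 and 27.7 CPM in maternal and 20.3 and 24.5 CPM in control males. Female levels of Cdk1 were 27.8 and 20.7 CPM with dual exposure, 29 and 29.2 CPM with paternal, 26.9 and 24.7 CPM with maternal exposure and 39.25 and 25.6 CPM in controls. The kinase thus shared the pattern of low male controls and a single high female control. Aurkb, the kinase of the chromosomal passenger complex, ranged from 11.9 CPM in the second female dual library to 26.1 CPM in the first female control, and its log2 fold change for dual exposure was -0.27 ± 0.15 (edgeR adjusted p = 0.328). Averaged over the sexes, the 5 kinetochore genes among the members lay above 0 with dual exposure, at 0.02 to 0.33. The 6 mitotic cyclins and kinases among them lay below 0, at -0.19 to -0.02, with no edgeR adjusted p under 0.206 in either group. The sexes differed: these kinetochore genes ran from 0.23 to 0.92 in males and from -0.26 to -0.03 in females. The cyclins and kinases had medians of 0.14 in males and -0.34 in females. Kinetochore genes outside the members did not all lie on 1 side of 0 with dual exposure over both sexes. Cenpk and Cenpp were at 0.47 and 0.40, and Cenpw was at -0.38.

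The 6 subunits of the MCM helicase lay on the same side of 0 with dual and with maternal exposure, and 5 of 6 did so with paternal exposure. With dual exposure their log2 fold changes ran from -0.19 to -0.09, with paternal exposure from -0.00 to 0.12 and with maternal exposure from 0.04 to 0.20. Mcm2 had 39.8 and 46.55 CPM in dual, 48.3 and 43.5 CPM in paternal, 56.2 and 41.35 CPM in maternal and 38 and 35.1 CPM in control males. Females had Mcm2 at 47.4 and 30.45 CPM with dual exposure, 44.7 and 46.2 CPM with paternal, 48.9 and 38.8 CPM with maternal exposure and 67.7 and 41 CPM in controls. The groups overlapped, and the log2 fold changes of Mcm2 were -0.12, 0.04 and 0.05 (SE 0.15). Of the 6 subunits, Mcm6 had the smallest p with maternal exposure, at a log2 fold change of 0.20 ± 0.12 (edgeR adjusted p = 0.998).

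Pcna, which clamps the polymerases to DNA, had 74.5 and 83.75 CPM in dual, 86.6 and 78.2 CPM in paternal, 90.8 and 78.8 CPM in maternal and 72.3 and 62.9 CPM in control males. Female levels were 78.5 and 63.7 CPM with dual exposure, 77.5 and 83.45 CPM with paternal, 85.5 and 75.7 CPM with maternal exposure and 100.2 and 65.9 CPM in controls. Its spread was among the narrowest of the replication genes, with the highest library at 1.59 times the lowest. Log2 fold changes were 0.001, 0.12 and 0.14 (SE 0.11) for dual, paternal and maternal exposure.

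At the G1 to S passage, Ccnd2 was not called against control over both sexes, though it had the smallest p of all members with maternal exposure. It was abundant, with 12173 to 32268 counts per library, yet replicates of some groups lay well apart. It had 881 and 932 CPM in dual, 996 and 892 CPM in paternal, 1112 and 869 CPM in maternal and 837 and 781 CPM in control males. In females Ccnd2 had 898 and 684 CPM with dual exposure, 851 and 959 CPM with paternal, 941 and 819 CPM with maternal exposure and 922 and 718 CPM in controls. Here the first female control was not the highest library, the first male maternal library was. Log2 fold changes were 0.18 ± 0.10 for paternal (edgeR adjusted p = 0.633) and 0.20 ± 0.10 for maternal exposure (adjusted p = 0.998).

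Ccnd1, the other D cyclin of the list, was at 35.4 and 36.2 CPM in dual, 40.9 and 35.6 CPM in paternal, 44.2 and 30.4 CPM in maternal and 30.9 and 32.2 CPM in control males. In females it was at 39.2 and 33.3 CPM with dual exposure, 37.7 and 40.3 CPM with paternal, 37.4 and 35.4 CPM with maternal exposure and 46.2 and 34.7 CPM in controls. It moved least of all members between libraries, at 1.52 times from lowest to highest. Its log2 fold changes were 0.01, 0.11 and 0.05 (SE 0.11) for dual, paternal and maternal exposure.

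The E cyclins activate Cdk2 at the start of S phase and were both scarce. Ccne1 had 4.86 and 2.91 CPM in dual, 4.02 and 4.56 CPM in paternal, 6.53 and 4.42 CPM in maternal and 4.38 and 2.88 CPM in control males. Females had 4.59 and 4.17 CPM with dual exposure, 4.39 and 5.47 CPM with paternal, 5.59 and 3.94 CPM with maternal exposure and 7.12 and 3.99 CPM in controls. Both male maternal libraries lay above the higher male control, the second of them only just, and the other exposed groups overlapped their controls. Ccne2 stood at 13.8 and 16.6 CPM in dual, 19.1 and 12 CPM in paternal, 16.1 and 10.6 CPM in maternal and 12.6 and 13.2 CPM in control males. The female values of Ccne2 were 14.5 and 11.6 CPM with dual exposure, 12.3 and 13.9 CPM with paternal, 13.9 and 13.7 CPM with maternal exposure and 15.2 and 7.53 CPM in controls. The second female control was the lowest library for this gene, and the log2 fold changes were 0.22, 0.23 and 0.16 (SE 0.19).

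E2f1, the activator of S phase genes, had 9.34 and 12 CPM in dual, 12.95 and 13.1 CPM in paternal, 16.65 and 12.2 CPM in maternal and 9.37 and 11.7 CPM in control males. Female values were 12.4 and 10.8 CPM with dual exposure, 12.5 and 14.5 CPM with paternal, 14.4 and 11.6 CPM with maternal exposure and 16.8 and 12.7 CPM in controls. Both female dual libraries lay below both female controls. The log2 fold changes over both sexes were -0.17, 0.09 and 0.14 for dual, paternal and maternal exposure (SE 0.14).

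**Figure D4:**
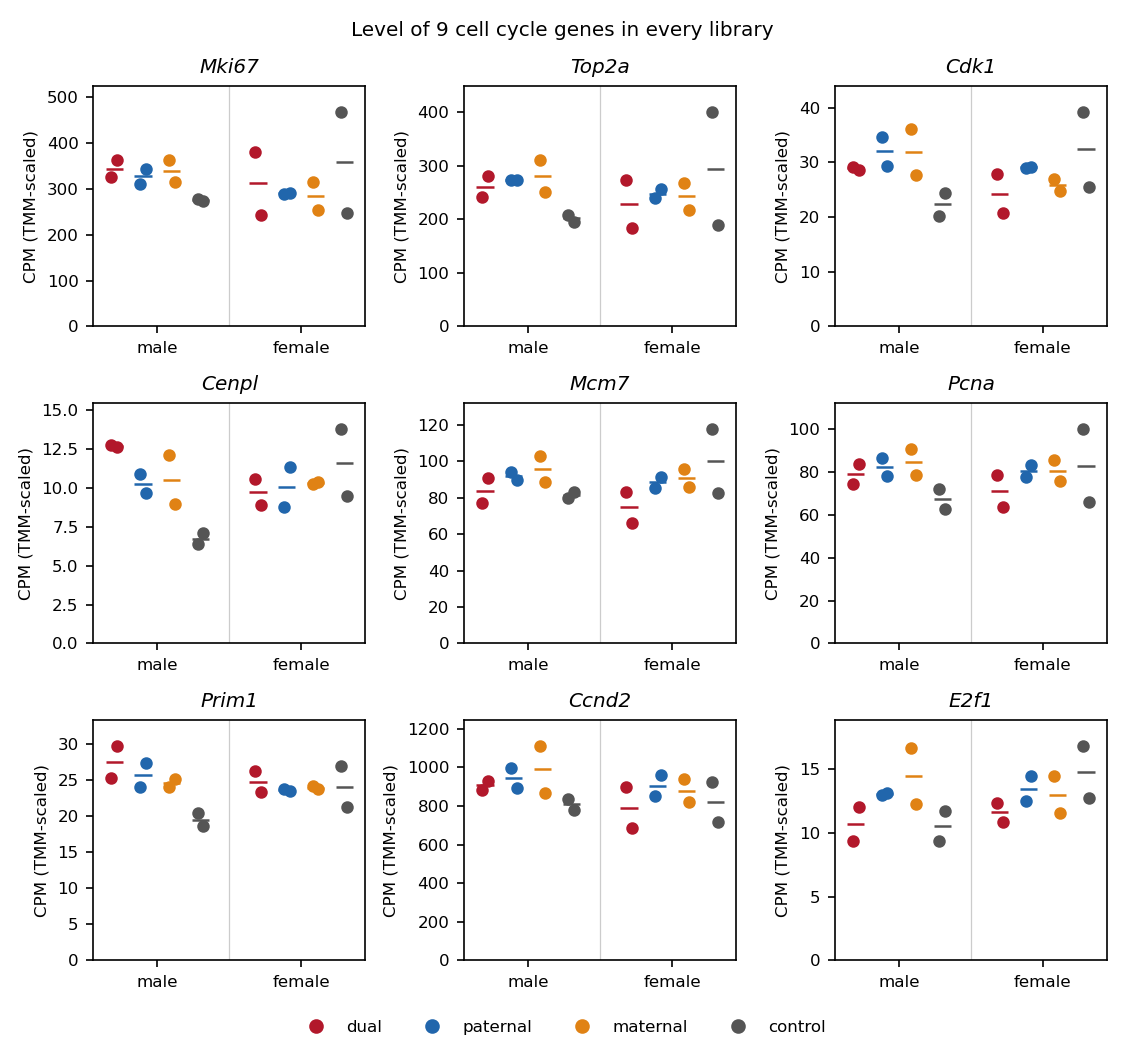
CPM of 9 members in each library, with 1 point per library, a bar at the mean of 2 libraries and exposures along the axis from dual to control for males and females. For Mki67, Top2a, Cdk1 and Cenpl the male controls lie below the exposed male libraries and the first female control is the highest point.

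Dual exposure set against a single exposed parent gave the same absence of calls. Against paternal exposure 0 of 48 members were called, beside 8.81% of all genes, with the smallest p for Mcm5 at a log2 fold change of -0.30 ± 0.13 (edgeR adjusted p = 0.162), Cdc6 at -0.42 ± 0.19 and Fen1 at -0.65. Against maternal exposure 0 were called, beside 5.76% of all genes, led by Mcm6 at -0.32 ± 0.12 (edgeR adjusted p = 0.128), Mcm5 at -0.33 ± 0.13 and Fen1 at -0.79. The effect of dual exposure minus the summed paternal and maternal effects was past the threshold for 0 members, beside 4.21% of all genes. Its smallest p belonged to Mcm5 at -0.44 ± 0.18 (edgeR adjusted p = 0.185), Ccnd2 at -0.32 ± 0.14 and Mcm6 at -0.40 ± 0.17. DESeq2 called 0 members in these 3 comparisons, and unadjusted p under 0.05 was reached by 2, 6 and 3 of the 48 members, beside 24.6%, 21.1% and 19.6% of all genes.

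In male fetuses nearly all members lay above the controls, and none passed the test. Of 48 members, 44 had a log2 fold change above 0 with dual exposure (48.9% of all genes), 48 with paternal (47.2%) and 48 with maternal exposure (47.3%). Medians against male control were 0.23 over mitosis and 0.18 over replication genes with dual, 0.36 and 0.32 with paternal and 0.29 and 0.33 with maternal exposure. edgeR called 0 members in each, beside 0% of all genes, and DESeq2 called 0. At an unadjusted p under 0.05 were 3 members with dual (4.86% of all genes), 5 with paternal (10.4%) and 11 with maternal exposure (7.92%).

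Cenpl led again in males, at a log2 fold change of 0.92 ± 0.21 with dual exposure, or 1.89 times the control level (95% interval 0.48 to 1.36 on the log2 scale; edgeR adjusted p = 0.942). Its values were 0.61 ± 0.21 with paternal (adjusted p = 0.371) and 0.65 ± 0.21 with maternal exposure (adjusted p = 0.59). Prim1 reached 0.49 ± 0.13 with dual and 0.40 ± 0.13 with paternal exposure (edgeR adjusted p = 0.353 for paternal). Gmnn, or geminin, which blocks relicensing by holding Cdt1, was at 6.78 and 8.8 CPM in dual males, against 4.14 and 4.66 CPM in control males. These groups did not overlap, and the log2 fold change was 0.82 ± 0.30 (edgeR adjusted p = 0.942). Cdk1 was at 0.52 ± 0.19 with both paternal and maternal exposure, and Mcm6 at 0.52 ± 0.17 with maternal exposure (edgeR adjusted p = 0.383 and above).

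Both male controls lay below both exposed male libraries for 28 members with dual exposure (18% of all genes), 44 with paternal (20.6%) and 37 with maternal exposure (19.5%), and above both for none (19.1%, 23.5% and 20.6% of all genes). For 24 members they lay below all 6 exposed male libraries, beside 5.73% of all genes. Of these, 14 were mitosis genes (Mki67, Top2a, Cdk1, Bub1, Bub1b, Kif11, Cenpe, Cenpf, Cenpl, Nusap1, Tpx2, Prc1, Hmmr and Nuf2), 9 were replication genes (Mcm2, Mcm4, Mcm6, Pcna, Rrm1, Rrm2, Gmnn, Prim1 and Lig1) and 1 was Ccnd2. The members move together from library to library and share the same 2 controls, so 24 genes are not 24 independent observations. With only the second male control kept, the mitosis medians were 0.24 with dual, 0.38 with paternal and 0.33 with maternal exposure. With only the first kept they were 0.16, 0.34 and 0.32.

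In female fetuses the direction was the opposite. Below 0 were 46 of 48 members with dual exposure (48.1% of all genes), 43 with paternal (51.5%) and 46 with maternal exposure (50.9%). Medians against female control were -0.33 over mitosis and -0.42 over replication genes with dual, -0.19 and -0.21 with paternal and -0.26 and -0.20 with maternal exposure. One member passed the test: Mcm7 fell with dual exposure, where edgeR called 15% of all genes and 5.64% of all genes as lower. DESeq2 called Mcm5 and Mcm7 there. Both female dual libraries also stood apart in the share of 2 annotation classes: TEC (loci still to be experimentally tested) and sense-intronic genes took 0.872% and 0.86% of their counts, against 0.325% and 0.349% in the female controls and 0.28% to 0.534% in the other 12 libraries. The endothelial marker Pecam1 and the globin gene Hbb-bs were lower in them than in female controls, at log2 fold changes of -0.55 (edgeR adjusted p = 0.00987) and -0.88 (adjusted p = 0.0239). Summed, 9 endothelial and pericyte markers overlapped, at 332.7 and 295.6 CPM in dual and 293.4 and 437.3 CPM in control females. The 8 erythroid genes summed to 372.9 and 369.7 CPM in dual and 537.9 and 651.4 CPM in control females. The part of these differences in the results on dual females was not tested. Paternal and maternal exposure called 0 members in females by edgeR and by DESeq2, with 0 at an unadjusted p under 0.05, beside 7.89% and 4.7% of all genes.

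Mcm7 had 83 and 66.2 CPM in dual females, against 118 and 82.6 CPM in control females, so the higher dual library lay just above the lower control. Its log2 fold change was -0.42 ± 0.14, or 0.745 times the control level (95% interval -0.72 to -0.13; edgeR adjusted p = 0.0474). The call lay close to the threshold. The log2 fold change was -0.15 without the first female control, -0.27 without the second female dual library and -0.67 without the second female control. The call was lost in the first 2 of these fits. It was also lost without either male control, either paternal library of either sex or either female maternal library. With DESeq2 size factors or protein-coding genes alone it was lost as well. Overlap with the neighbouring gene Ap4m1 covers 7.25% of the Mcm7 exon bases.

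Next by p for dual females were Cdt1, the loader of the MCM helicase, and Mcm5. Cdt1 had 9.64 and 7.63 CPM in dual, against 16 and 11 CPM in control females, with no overlap and a log2 fold change of -0.64 ± 0.22 (edgeR adjusted p = 0.0633). Mcm5 had 34.2 and 26.5 CPM in dual, against 52.4 and 33.9 CPM in control females, with overlap and a log2 fold change of -0.51 ± 0.18 (edgeR adjusted p = 0.0675). Only Cdt1, Fen1 and E2f1 had both dual libraries below both controls, beside 23.1% of all genes. At an unadjusted p under 0.05 were 11 members, beside 29.9% of all genes in either direction. The share of members was below the share of all genes at both marks. For the unadjusted p, however, the share of all genes that were lower was not computed, while nearly all members lay below 0.

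For the single exposures in females the smallest p belonged to Lig1, which seals nicks between Okazaki fragments, at -0.23 ± 0.13 with paternal exposure (edgeR adjusted p = 0.736). Aurkb at -0.34 ± 0.20 and the kinetochore protein Cenpf at -0.35 ± 0.22 came next. With maternal exposure Cdk1 was at -0.33 ± 0.18, Aurkb at -0.37 ± 0.20 and Birc5, or survivin, a partner of Aurkb, at -0.34 ± 0.20 (edgeR adjusted p = 0.98 each). All 6 values turned positive without the first female control.

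The direction in females depended on the first female control for mitosis genes and for the single exposures, while with dual exposure the replication median stayed just below 0 without it. Without this library the mitosis medians were 0.21 with dual, 0.33 with paternal and 0.29 with maternal exposure, and the replication medians were -0.02, 0.17 and 0.21. Without the second female control the mitosis medians were -0.69, -0.56 and -0.63 in the same order of exposures, and without the second female dual library the dual mitosis median was -0.07. In such fits the lone control is assumed to vary like the other groups. Pooled over the sexes, dual exposure called 6 members as higher without the first female control (Cenpe, Cenpf, Cenpl, Nusap1, Prim1 and Ccne2), where 9.32% of all genes were called. It called 3 as lower without the second (Aurkb, Cdc20 and Mcm7), where 4.11% of all genes were called. Paternal exposure called 4 as higher without the first (Top2a, Ccna2, Bub1 and Nusap1), where 3.04% of all genes were called.

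The male effect minus the female effect was above 0 for 48 of 48 members with dual exposure (46.8% of all genes), for 48 with paternal (45.9%) and for 47 with maternal exposure (46.8%). Its medians over mitosis genes were 0.50 with dual, 0.53 with paternal and 0.54 with maternal exposure, and over replication genes 0.59, 0.52 and 0.53. The test of this difference called 1 member, Cenpl with dual exposure, where it called 3.5% of all genes. DESeq2 called Cenpl alone as well, and 13 members were at an unadjusted p under 0.05, beside 20.4% of all genes. For paternal and maternal exposure edgeR called 0 members, beside 0% of all genes, and DESeq2 called 0, with 12 and 14 members at an unadjusted p under 0.05 beside 10.8% and 9.86% of all genes.

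For Cenpl the dual effect was 1.17 ± 0.28 higher in males than in females on the log2 scale, a 2.25-fold difference of effects (95% interval 0.58 to 1.77; edgeR adjusted p = 0.0325). Dual and control libraries stood at 12.7 and 12.6 against 6.38 and 7.08 CPM in males, and at 10.55 and 8.88 against 13.8 and 9.44 CPM in females. The male groups lay far apart and the female groups overlapped. The adjusted p was 0.0783 without the first female control, 0.0715 and 0.133 without the first and the second male control, 0.0682 and 0.121 without the first and the second male dual library, and 0.0525 and 0.135 without the first and the second female dual library. The size stayed between 0.88 and 1.43 when any 1 library was left out. Next came Cdk1 at 0.79 ± 0.26 (edgeR adjusted p = 0.101) and Gmnn at 1.18 ± 0.41 (adjusted p = 0.113).

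With paternal exposure the difference between the sexes was 0.82 ± 0.28 for Cenpl (edgeR adjusted p = 0.36), 0.52 for Lig1 and 0.67 for Cdk1. With maternal exposure it was 0.84 ± 0.26 for Cdk1 (edgeR adjusted p = 0.418), 0.82 for Cenpl and 0.85 for Bub1b, a kinase of the spindle checkpoint. Without the first female control the mitosis medians of this difference were -0.03 with dual, -0.01 with paternal and 0.05 with maternal exposure, and the replication medians 0.24, 0.17 and 0.16. Without the second they were 0.92, 0.94 and 0.94 over mitosis genes. The common shift of mitosis genes between the sexes was thus present with 1 female control and at or near 0 with the other.

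**Figure D5:**
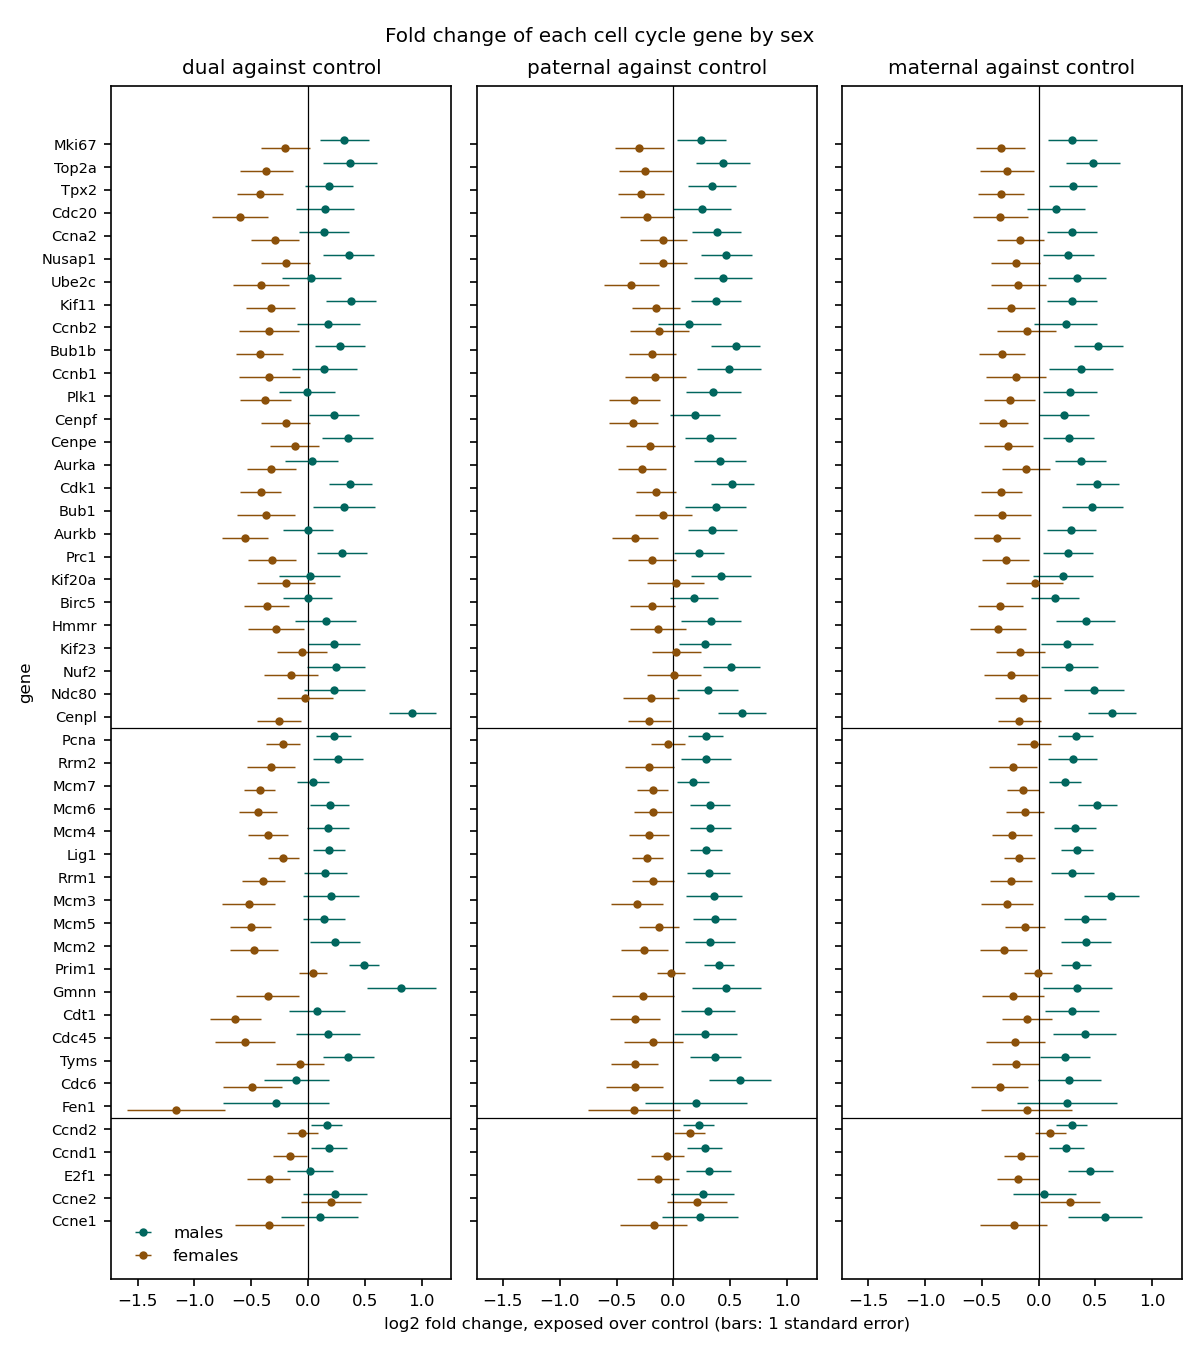
Log2 fold change against control of each member in males and females, with bars of 1 SE, for dual, paternal and maternal exposure in separate panels. Male values lie above 0 for 44, 48 and 48 of 48 members and female values below 0 for 46, 43 and 46, and the bars of most members cross those of their neighbours.

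Further genes of the same pathways, listed apart from the members, gave few calls. Of 44 other replication genes, 1 passed for dual exposure over both sexes, beside 3.36% of all genes. It was Orc4, a subunit of the origin recognition complex that marks where replication can start. Its log2 fold change was 0.44 ± 0.10 (edgeR adjusted p = 0.0166). None of 56 other mitosis genes and none of 24 other G1/S regulators passed there, beside the same 3.36%. Paternal and maternal exposure called 0 of 44, 0 of 56 and 0 of 24, beside 0% of all genes. The medians of dual, paternal and maternal exposure were -0.03, 0.03 and 0.06 over the other replication genes and -0.005, 0.08 and 0.05 over the other mitosis genes.

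Orc4 was at 50.5 and 48.1 CPM in dual, 36.55 and 48 CPM in paternal, 43.6 and 40.9 CPM in maternal and 42.4 and 44.5 CPM in control males. In females it was at 54.4 and 53 CPM with dual exposure, 39 and 46 CPM with paternal, 44 and 43.8 CPM with maternal exposure and 38 and 28.05 CPM in controls. The dual libraries of each sex lay above every other library of that sex. For dual against control females, edgeR called 15% of all genes in either direction. In females the rise was 0.70 ± 0.13 (edgeR adjusted p = 0.00231), and it stayed past the threshold under all 21 alternatives, with adjusted p from 8.04e-08 to 0.0202. Over both sexes the call ended without the first male control (adjusted p = 0.11), the first male dual library (0.0962) or the first female dual library (0.0578) and with protein-coding genes alone (0.0623), where the log2 fold changes were 0.42, 0.42, 0.43 and 0.48. So the log2 fold changes of the origin gene Orc4 and the helicase gene Mcm7 had opposite signs in dual females, where the call on Mcm7 lay close to the threshold.

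Of the 44 other replication genes, 3 were called lower in dual females, beside 5.64% of all genes. Pold2, a subunit of polymerase delta, was at 14 and 13.1 CPM in dual, against 19.6 and 19.5 CPM in control females, and fell by 0.53 on the log2 scale (edgeR adjusted p = 0.0249). The groups were well apart, and the adjusted p was 0.0682 and 0.153 without the first and the second female dual library. Dut, which removes dUTP, fell by 0.50 (edgeR adjusted p = 0.0255), and Rpa1, which coats single-stranded DNA, by 0.33 (edgeR adjusted p = 0.039). Both calls were lost without the first female control, at adjusted p of 0.194 and 0.235, and without the second female dual library, at 0.258 and 0.313. For Rpa1 the adjusted p also reached 0.0509 to 0.0539 without the second female paternal or either female maternal library. Rpa1 was also lower with dual than with paternal exposure over both sexes, at -0.26 ± 0.07 (edgeR adjusted p = 0.0396), a call that was lost, with adjusted p of 0.0514 to 0.193, without either male control, either paternal library of either sex, either female maternal library, the first male dual or the second female dual library.

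Among G1/S regulators, 3 of 24 were called lower in dual females, beside 5.64% of all genes. Cdk4, the kinase partner of the D cyclins, was at 210 and 167 CPM in dual, against 293 and 209 CPM in control females, and fell by 0.41 on the log2 scale (edgeR adjusted p = 0.0367). E2f4, a mostly repressive E2F factor, fell by 0.35 (edgeR adjusted p = 0.0422) and E2f2, an activating one, by 0.82 (edgeR adjusted p = 0.0446). Without the first female control the adjusted p was 0.372 for Cdk4, 0.129 for E2f4 and 0.355 for E2f2, and without the second female dual library it was 0.317, 0.147 and 0.316. E2f2 was also lost without either female paternal or either female maternal library (0.0531 to 0.058). E2f4 was lost as well without the second male control, the first male dual, either female paternal or the first female dual library (0.0509 to 0.141). With protein-coding genes alone scaled and tested, none of the falls in dual females named here passed, Mcm7 among them, though the log2 fold changes kept their sign: -0.34 for Mcm7, -0.45 for Pold2, -0.42 for Dut, -0.25 for Rpa1, -0.33 for Cdk4, -0.27 for E2f4 and -0.74 for E2f2.

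Genes of these lists with the smallest p in the single exposures included inhibitors of the cycle. Cdkn1b, which encodes p27, had a log2 fold change of 0.27 ± 0.08 with paternal (edgeR adjusted p = 0.405) and 0.18 ± 0.08 with maternal exposure (adjusted p = 0.998). Cdkn1c, which encodes p57, had 0.26 ± 0.11 and 0.23 ± 0.11 for the same exposures. Among other replication genes Rpa3 and Orc2 had 0.29 ± 0.12 and 0.24 ± 0.10 with paternal exposure (edgeR adjusted p = 0.559 each). Spc24, of the outer kinetochore, led the other mitosis genes at 0.32 ± 0.19 with paternal and 0.30 ± 0.19 with maternal exposure. For dual exposure the smallest p within each list, apart from Orc4, belonged to Rfc5, of the clamp loader, at -0.27 ± 0.11 (edgeR adjusted p = 0.189), to Cenpk, of the inner kinetochore, at 0.47 ± 0.22 (adjusted p = 0.234) and to E2f6 at -0.16 ± 0.09 (adjusted p = 0.313).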

How the data were processed

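RNA sequencing of total RNA from fetal cortex was deposited as 1 table of raw counts per gene for each of 16 libraries. Per the labels' protocols, libraries were made with a TruSeq total RNA kit. Per the submitters' processing notes, the authors used Trimmomatic, STAR and featureCounts with GRCm39 (mm39) to make the deposited counts; no versions, annotation release or strand setting could be taken from the labels. Antisense and overlapping genes are uncertain for that reason.

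Of 55359 gene IDs, 52083 were matched to a symbol by ID in GENCODE M21 (GRCm38), which was used for names, exon lengths and overlaps only. Promoters came from RefSeq on GRCm38.p6. Genes were kept by filterByExpr (minimum count 10, minimum total 15), TMM-scaled and fitted in edgeR 4.0.16 under R 4.3.3 (glmQLFit and glmQLFTest, two-sided, 1 fit of 8 group means, 8 residual degrees of freedom). Comparisons over both sexes weight them equally. Adjusted p-values are Benjamini-Hochberg values over all 21543 genes tested, with a threshold of 0.05. Fold changes are on the log2 scale. The fit was tested on simulated data. Each result was recomputed with DESeq2 1.42.0, with size factors of DESeq2 in place of TMM, with no filter, with protein-coding genes alone, with the replicate number as a block, with a narrower mitosis class and without each library in turn.

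The 48 members, the marker and pathway lists and the rule for naming genes (the smallest p in each comparison, the extremes of level, 10 members given in every library) were chosen with earlier results of these data known. Chosen after their values were seen were the genes listed by groups that do not overlap or by libraries left out, and the other replication and G1/S genes named in dual females. Replicates of each group differed by more than counting noise, with a median squared difference of 1.52 to 4 against 0.455 for noise alone.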

Additional observations from a re-analysis of the deposited data

Results flagged for a closer look

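Among 116 sets of 4 libraries of 1 exposure, 17 had 1 library far from the other 3 by Dixon's test at the 95% level. The sets cover 25 members and the class levels in the same libraries, and the members move together. The flags are therefore not independent, and a chance rate of 1 in 20 cannot be set against their number. The first female control accounted for 11 of them. Its mitosis level was 0.56 and its replication level 0.46, against -0.35 to -0.20 and -0.25 to -0.18 in the other 3 controls. By gene, it stood alone at 468.5 CPM for Mki67 (others 248 to 279), 400.4 CPM for Top2a (188 to 208), 117.8 CPM for Mcm7 (80 to 82.9), 91.17 CPM for Mcm6 (54.3 to 59) and 52.43 CPM for Mcm5 (32.1 to 34.7). It also did so at 57.8 CPM for Lig1 (others 39.8 to 42.5), 26.09 CPM for Aurkb (12.9 to 14.8), 13.64 CPM for Cdc6 (6.66 to 7.48) and 9.26 CPM for Gmnn (4.14 to 4.8). That the 3 other controls lay close together for these genes is part of the rule that flagged them. In the same library the meningeal markers summed to 85.89 CPM and the intermediate progenitor markers to 667.5 CPM, and their part in its high levels was not tested.

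The other isolated libraries were scattered. With dual exposure, the first female library had a replication minus mitosis level of -0.12, the second male library had Fen1 at 1.61 CPM (others 0.68 to 0.77) and the second female library had Cdk1 at 20.68 CPM (27.8 to 29.2). With paternal exposure, the first male library had Cdk1 at 34.69 CPM (others 29 to 29.3) and Mcm6 at 73.55 CPM (66.1 to 67), and the second male library had Prim1 at 27.45 CPM (23.5 to 24.1).

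The effect of dual exposure on Cenpl differed between the sexes by 1.17 on the log2 scale, male minus female, in the test of that difference (edgeR adjusted p = 0.0325).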

How the results depend on the processing

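Calls on members came and went with single libraries. With 1 library left out at a time, the number of members called ran from 0 to 6 for dual, 0 to 4 for paternal and 0 to 35 for dual exposure in females, and from 0 to 9 and 0 to 10 for paternal and maternal exposure in females. It ran from 0 to 2 for dual against paternal, 0 to 3 for dual against maternal, 0 to 13 for non-additivity and 0 to 31, 0 to 31 and 0 to 27 for the sex differences of dual, paternal and maternal exposure. All 35 calls in dual females, and the highest counts for the sex differences, came without the second female control, where 18.3% of all genes were called in dual females. The highest counts for paternal and maternal exposure in females also came from that fit, and the highest for non-additivity came without the first female control. Each of these fits leaves 1 female control, whose own spread is unknown. Their numbers of calls therefore cannot be weighed against 48 members. The replication median minus the mitosis median ranged from -0.155 to -0.0253 for dual and from -0.0456 to 0.0862 for maternal exposure. For 6 fold changes in females the sign reversed without the first female control and the value was lowest without the second. With paternal exposure they ran from -0.4362 to 0.0087 for Lig1, -0.6948 to 0.1271 for Aurkb and -0.7835 to 0.2498 for Cenpf. With maternal exposure they ran from -0.6042 to 0.013 for Cdk1, -0.7184 to 0.099 for Aurkb and -0.6525 to 0.0653 for Birc5.

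With no filter on low counts the members called numbered 20 for dual, 2 for paternal and 1 for maternal exposure in females, 3, 6 and 6 in males, 23, 15 and 16 for the sex differences, 4 against paternal, 4 against maternal and 3 for non-additivity. Of all genes the same fits called 9.69%, 0.992% and 0.44% in females, 0.189%, 0.736% and 0.426% in males, 4.11%, 0.89% and 0.741% for the sex differences, 6.87% against paternal, 5.15% against maternal and 4.82% for non-additivity. The cause was not tested. Dual females had 0 with DESeq2 size factors, 0 with protein-coding genes alone, 4 with the replicate block (Mcm5, Mcm6, Mcm7 and Cdt1) and 2 by DESeq2. The sex difference of dual exposure had 0 with protein-coding genes alone. Replicate numbers did not pair libraries: correlations of deviations over 28 pairs of groups ran from -0.143 to 0.183, with 1 above 0.1. Across all alternatives, 457 of the counts and medians stayed within 1.5 times or 1 SD and 53 moved. That SD was the pooled SD between replicates, 0.287 for the mitosis level. A median near 0 could therefore change sign and still count as unmoved. The paternal mitosis median, for example, ran from -0.121 to 0.3406 with 1 library left out. For single members 993 values kept sign and call, 52 gained a call, 20 lost one and 6 reversed. Averaged over the sexes, the typical interval of a member reached 0.33 to each side.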
